A study of Mus musculus with 6 samples.

Results

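The genes of the renin-angiotensin system were followed in kidney mRNA of mice before and after 21 days of gavage with adenine and potassium oxonate. They were chosen by symbol and comprised 9 of the 55450 genes in the deposited table, namely Agt, Ren1, Ace, Enpep, Agtr1a, Agtr1b, Agtr2, Mas1 and Atp6ap2. Of these 9 genes, 7 had enough counts to be tested, among 16592 genes tested in all, and Agtr1b and Agtr2 did not. All mice were wild-type C57BL/6J males, bought at 7 weeks of age with a weight of 22 to 25 g and kept for 1 week before the experiment. The day-21 group (3 mice sequenced) received adenine at 0.16 g/kg together with potassium oxonate at 2.4 g/kg by mouth once a day, a mixture that raises serum uric acid and injures the kidney. The day-0 group (3 mice sequenced) served as the control and is labelled with 20% PEG, a vehicle. Each design group held 6 mice, and how the 3 that were sequenced were picked is not stated in the sources used here. No PEG is labelled for day 21, so vehicle, age and treatment cannot be told apart in this comparison.

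The renin-angiotensin system is a cascade of peptides that raises blood pressure and retains salt. Renin, released by juxtaglomerular cells of the kidney, cuts angiotensinogen to angiotensin I, and angiotensin-converting enzyme (ACE) trims this to angiotensin II, which acts mainly through the AT1 receptor. Aminopeptidases and other peptidases then shorten angiotensin II, and the kidney holds most of these components locally, with ACE and the aminopeptidases in the brush border of the proximal tubule.

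The stretch of Agt that encodes angiotensin I is shown first, since it holds the peptide that the cascade cuts. It lies in exon 2 of 5, on the minus strand of GRCm38 at chr8:124564450-124564479, and spans codons 30 to 39 of the coding sequence. The capitals mark the 8 codons of angiotensin II, and the lower-case end marks the 2 codons of the dipeptide that ACE removes.
Agt angiotensin I codons: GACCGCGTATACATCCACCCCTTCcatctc

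The AT1 receptor is encoded by a pair of genes in the mouse, whose first 90 coding bases are shown because 1 of the pair had counts and the other had none. Both coding sequences are 1077 bases long with 99 differing bases (90.8% identity), and the longest stretch without a difference holds 66 bases. In the first 90 bases, given below for Agtr1a (plus strand of GRCm38, chr13:30380954-30381043, exon 3 of 3 in the transcript used) and Agtr1b (minus strand, chr3:20316351-20316440, exon 2 of 2), capitals mark the 8 positions that differ.
Agtr1a: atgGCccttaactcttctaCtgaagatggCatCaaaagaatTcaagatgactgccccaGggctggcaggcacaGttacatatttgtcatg
Agtr1b: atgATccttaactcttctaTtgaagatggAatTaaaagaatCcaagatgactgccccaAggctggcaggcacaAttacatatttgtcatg

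Promoter windows from RefSeq (GRCm38.p6, 250 bases before to 50 after the start of transcription) were found for 8 of the 9 genes. Both strands were searched for the TATA box letters TATAAA, held by 13.6% of the 32851 windows in the table, and for the GC box letters GGGCGG, held by 35.7%. No TATAAA match shares a base with a GGGCGG match in these windows. Bases -40 to -11 are printed for the 4 genes with TATAAA near base -30, with both motifs in capitals, because these genes ranged from the highest to no measured level. In Ace, whose upstream start is shown and not the start used in testis, the TATAAA match lies on the opposite strand. The windows are chr1:133350634-133350663 (plus) for Ren1, chr8:124569717-124569746 (minus) for Agt, chr11:105967908-105967937 (plus) for Ace and chr3:20367188-20367217 (minus) for Agtr1b.
Ren1: tacatggtgtgTATAAAagaaggctcaggg
Agt: accccttgagTATAAAtaagcctgcttggc
Ace: tggctgggtTTTATAatccgcaGGGCGGtc
Agtr1b: cctttgctgTATAAAttgtagctgtctccg
The matches began at base -29 in Ren1, -30 in Agt and -31 in both Ace and Agtr1b. The Ace window held 4 GGGCGG matches in all, of which those that begin at -140 and -136 overlap each other, and that of Atp6ap2 held 2, whereas those of Ren1 and Agt held none.

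Libraries held 10963849 to 14256556 counts on day 0 and 12662200 to 14333311 on day 21, and values are CPM (counts relative to a common library total, after TMM scaling). At these depths a floor of 3 counts is 0.209 to 0.274 CPM, which covers counting error only. The scaling matters here, since TMM factors were 0.852 to 0.886 on day 0 and 1.12 to 1.17 on day 21, and the median log2 difference over all genes was 0.03 with TMM but 0.42 with library size alone. Kidney markers were present in every mouse, but the summed level of 12 proximal tubule markers fell from between 26390 and 38000 CPM on day 0 to between 4261 and 6061 CPM on day 21, with 12 of 12 called lower. Over the same days, 7 macrophage markers went from between 133.8 and 160.6 CPM to between 655.4 and 887.5 CPM in sum, with 7 of 7 called higher. In whole kidney, fewer cells of a type and less RNA per cell cannot be told apart, and this holds for each value below.

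On day 21, 4 of the 7 genes tested were called lower (Ace, Ren1, Enpep and Agtr1a) and 0 were called higher, where a call needed more than a 1.5-fold difference and an adjusted p under 0.05 in edgeR's quasi-likelihood test. Among all genes tested, 15.5% were called lower and 19.6% higher. The median log2 fold change was -0.63 over the 7 genes and 0.03 over all genes. The groups did not overlap in 6 of the 7 genes, all but Mas1, as in 57.1% of all genes. With library size alone, 2 of the 7 genes were called lower (Ace and Ren1) and 1 higher (Agt), where 8.06% of all genes were called lower and 36.1% higher.

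**Figure D1:**
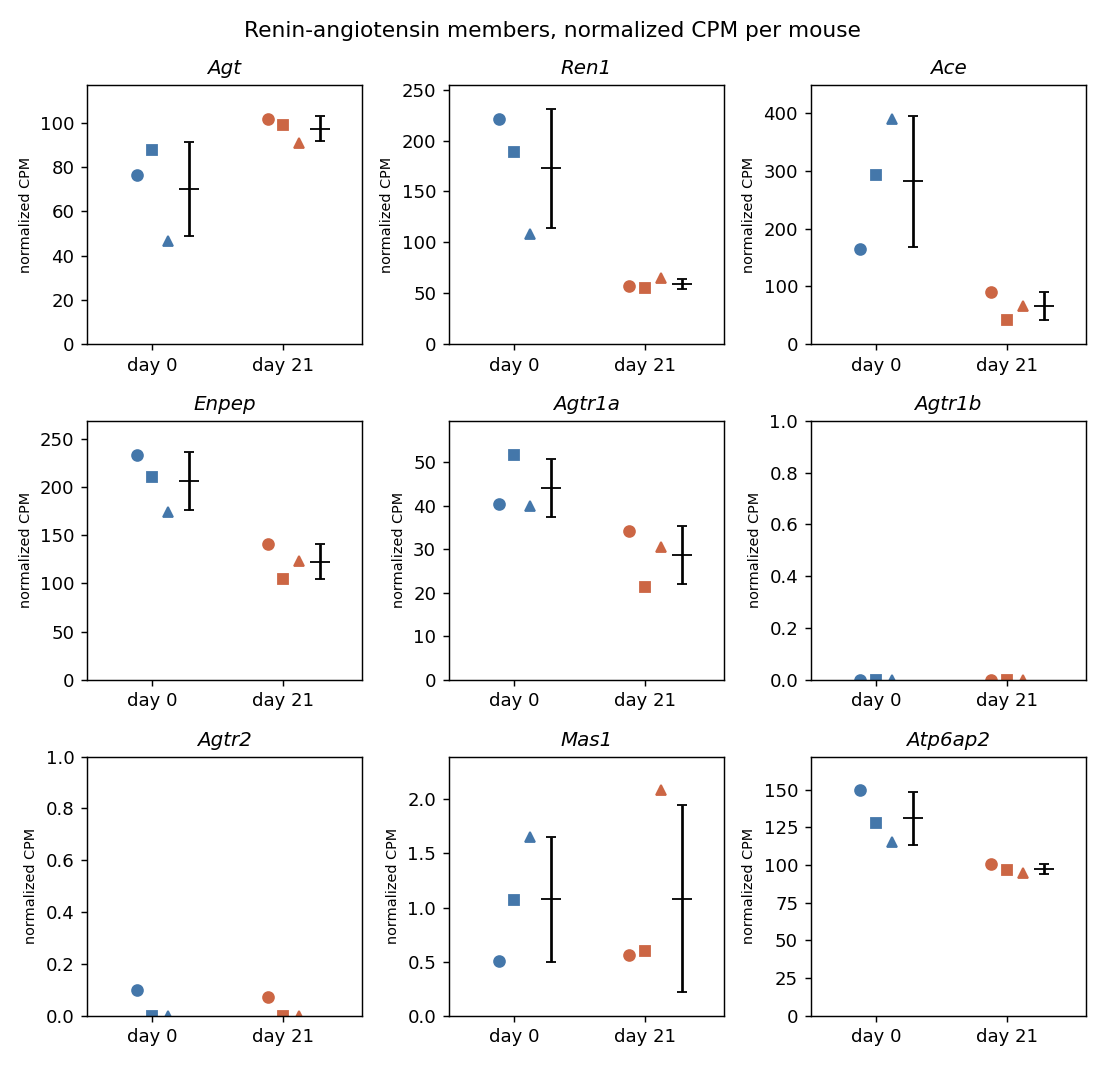
Normalized CPM (y axes, from 0) of the 9 genes in each mouse on day 0 (blue) and day 21 (orange), where the marker shape gives the replicate number and bars give mean ± SD of 3 mice for the 7 genes tested. Day-21 mice lay below all day-0 mice in Ren1, Ace, Enpep, Agtr1a and Atp6ap2 and above them in Agt, while Mas1 overlapped and Agtr1b had no counts.

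Agt (ENSMUSG00000031980.9, chromosome 8 of GRCm38 from 124556534 to 124569706) encodes angiotensinogen, the precursor of all angiotensin peptides. Its level was 76.3, 87.9 and 46.5 CPM in the day-0 mice and 102.0, 99.4 and 91.2 CPM in the day-21 mice. Every day-21 mouse was above every day-0 mouse, and the third day-0 mouse stood lowest. The mean went from 70.2 ± 21.4 CPM (SD, n = 3) to 97.5 ± 5.64 CPM (SD, n = 3), and the log2 fold change of 0.47 (SE 0.20, 95% confidence interval 0.04 to 0.91, edgeR adjusted p = 0.072) did not pass the threshold. The gene was called higher with library size alone (0.87, edgeR adjusted p = 0.0032) and without the second day-0 mouse (0.67, edgeR adjusted p = 0.024), whereas without the third day-0 mouse the value was 0.23. Per count of the proximal tubule markers given above, Agt had a ratio of 0.00128 to 0.00289 on day 0 and 0.0161 to 0.0233 on day 21 (log2 difference 3.18), without overlap (two-sided exact permutation p = 0.1, the smallest possible). The 12 markers had log2 fold changes from -3.79 to -1.42, and Kap, the largest in the sum, fell to 12.4% of day 0. The size of a ratio to this sum thus depends on which markers are in it, and it is not a level per cell. A group of 6 adrenal and liver markers could show tissue carried over from neighbouring organs. In sum these markers overlapped between the days (37.2 to 175.9 and 68.1 to 111.6 CPM). Only 3 of the 6 were tested, with 1 called lower and log2 fold changes from -2.82 to 0.05.

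Ren1 (ENSMUSG00000070645.5, chromosome 1 from 133350510 to 133360325) encodes renin, the protease that starts the cascade and the only renin gene of this strain. Its level was 221.5, 188.8 and 107.8 CPM on day 0 and 57.0, 55.3 and 64.5 CPM on day 21. All day-21 mice lay within a narrow range below the lowest day-0 mouse, which was again the third. The mean fell from 172.7 ± 58.5 to 58.9 ± 4.90 CPM (SD, n = 3 each), a log2 fold change of -1.55 (SE 0.22, 95% confidence interval -2.05 to -1.06, edgeR adjusted p = 3e-04), or 34.1% of the day-0 level. The call held in 17 of 17 alternatives, with log2 fold changes between -1.82 and -1.16. None of its 50-base words occurs in another annotated gene.

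Renin cells sit beside the glomerulus, so the glomerular and vascular markers were set beside Ren1. The summed level of 6 podocyte markers was 617.7, 663.8 and 417.3 CPM on day 0 and 388.5, 365.3 and 342.3 CPM on day 21. These markers did not move as 1, with 3 called lower and 1 higher (log2 fold changes from -1.09 to 0.65). The third day-0 mouse was thus lowest of its group in Ren1, in Agt and in the podocyte sum. It was also lowest of its group in Enpep, Atp6ap2 and Agtr1a, and highest in Ace and Mas1. Per podocyte marker count, Ren1 had a ratio of 0.359, 0.285 and 0.258 on day 0 and 0.147, 0.151 and 0.188 on day 21, again without overlap, with a log2 difference of -0.89. The 8 smooth muscle and mural cell markers summed to 275.8 to 302.7 CPM on day 0 and 303.0 to 398.6 CPM on day 21, with Acta2, Tagln and Cspg4 called higher and Myh11, a smooth muscle myosin, called lower (log2 fold change -0.79, edgeR adjusted p = 0.0024). The 8 mesangial and fibroblast markers summed to 182.4 to 288.3 CPM on day 0 and 858.6 to 1646 CPM on day 21, with 6 called higher and 0 lower. The part of these 2 lists in the Ren1 values was not tested.

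Ace (ENSMUSG00000020681.14, chromosome 11 from 105967945 to 105989964) encodes ACE, which removes a dipeptide from angiotensin I to form angiotensin II. Its level was 163.8, 291.9 and 390.2 CPM on day 0 and 90.3, 42.1 and 65.5 CPM on day 21. The spread within each day was wide, with a coefficient of variation of 40.3% and 36.6%, and the first day-0 mouse was closest to the treated group. The mean fell from 282.0 ± 113.5 to 66.0 ± 24.2 CPM (SD, n = 3 each), and the log2 fold change was -2.10 (SE 0.33, 95% confidence interval -2.82 to -1.37, edgeR adjusted p = 4.9e-04), or 23.4% of day 0. It was called lower in 17 of 17 alternatives, with log2 fold changes between -2.39 and -1.72.

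The values of Ace were set beside those of the proximal tubule markers. The proximal marker sum was 26390, 38000 and 36250 CPM on day 0 and 6061, 4261 and 5659 CPM on day 21. In both the Ace level and this sum the first mouse was lowest on day 0 and highest on day 21. Kap was the largest marker of the sum in every mouse (9381, 19260 and 17950 CPM on day 0). The mouse order on day 0 differed between markers. Slc22a6 was lowest in the first mouse (664.8, 1041 and 1140 CPM), whereas Lrp2 was highest in it (2858, 2410 and 2435 CPM). Per proximal marker count, Ace overlapped between the days, with a ratio of 0.00621, 0.00768 and 0.0108 on day 0 and 0.0149, 0.00987 and 0.0116 on day 21 (log2 difference 0.58, two-sided exact permutation p = 0.2). The 7 endothelial markers, whose cells also carry ACE, summed to 414.4 to 463.3 CPM on day 0 and 225.1 to 356.9 CPM on day 21. An antisense gene, Gm11651, covers 5.58% of the exon bases of Ace on the opposite strand and shares 3.77% of its 50-base words, and without a stated strand setting their reads cannot be told apart there.

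Enpep (ENSMUSG00000028024.14, chromosome 3 from 129269175 to 129332720) encodes aminopeptidase A, which removes the first residue of angiotensin II. Its level was 233.4, 209.9 and 174.2 CPM on day 0 and 141.0, 104.1 and 122.6 CPM on day 21. The groups did not overlap, and both had a similar relative spread. The mean fell from 205.8 ± 29.8 to 122.5 ± 18.4 CPM (SD, n = 3 each), with a log2 fold change of -0.75 (SE 0.15, 95% confidence interval -1.08 to -0.42, edgeR adjusted p = 0.0021). With library size alone the value was -0.36 (edgeR adjusted p = 0.045) and the fold no longer passed 1.5. Per proximal marker count Enpep was higher in every day-21 mouse (ratio 0.0217 to 0.0244) than in any day-0 mouse (0.00480 to 0.00885), the opposite order to its CPM. The size of this ratio depends on the markers summed, of which Kap, the largest, fell to 12.4% of day 0 and Slc5a12 to 37.3%.

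Agtr1a (ENSMUSG00000049115.15, chromosome 13 from 30336441 to 30382867) encodes the main AT1 receptor of the mouse kidney. Its level was 40.3, 51.8 and 40.0 CPM on day 0 and 34.1, 21.2 and 30.4 CPM on day 21. The gap between the groups was small, and the second mouse was the highest on day 0 and the lowest on day 21. The mean fell from 44.0 ± 6.71 to 28.6 ± 6.65 CPM (SD, n = 3 each), a log2 fold change of -0.63 (SE 0.18, 95% confidence interval -1.03 to -0.22, edgeR adjusted p = 0.018). The call was lost without the second day-0 mouse (-0.49, edgeR adjusted p = 0.068), without the second day-21 mouse (-0.45, edgeR adjusted p = 0.056), with upper-quartile scaling (-0.54) and with library size alone (-0.24, edgeR adjusted p = 0.26). Per podocyte marker count, the ratio was 0.0653 to 0.0958 on day 0 and 0.0581 to 0.0889 on day 21, and the groups overlapped. The podocyte sum was lower on day 21. By contrast, the mural sum (303.0 to 398.6 CPM) and the mesangial and fibroblast sum (858.6 to 1646 CPM) were above their day-0 ranges. The part of any of these lists in the Agtr1a values was not tested.

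The other receptors were at or near the limit of detection. Agtr1b (ENSMUSG00000054988.9, chromosome 3 from 20314473 to 20367177), the second AT1 receptor gene, had 0 counts in all 6 mice, and it shares 1.54% of its 50-base words with Agtr1a. Agtr2 (ENSMUSG00000068122.10, chromosome X from 21484544 to 21489164), which encodes the AT2 receptor, had 1, 0 and 0 counts on day 0 and likewise 1, 0 and 0 counts on day 21. Both lay under the floor of 3 counts, so no fold was computed, and this depth cannot show whether they differed.

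Mas1 (ENSMUSG00000068037.11, chromosome 17 from 12841079 to 12868143) encodes the receptor for angiotensin 1-7, a shortened peptide. It had 5, 13 and 16 counts on day 0 and 8, 10 and 34 counts on day 21, or 0.501, 1.07 and 1.65 CPM against 0.566, 0.597 and 2.08 CPM. The groups overlapped, and the third mouse was highest on both days. The log2 fold change was 0.02 (SE 0.62, edgeR adjusted p = 0.98), and its 95% confidence interval from -1.35 to 1.40 includes changes of over 2-fold either way.

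Atp6ap2 (ENSMUSG00000031007.2, chromosome X from 12587801 to 12617049) encodes the (pro)renin receptor, which is also an accessory protein of the vacuolar proton pump. Its level was 149.6, 128.2 and 115.1 CPM on day 0 and 100.9, 97.1 and 94.5 CPM on day 21. The day-21 mice lay close together below all day-0 mice. The mean went from 131.0 ± 17.4 to 97.5 ± 3.23 CPM (SD, n = 3 each), and the log2 fold change of -0.43 (SE 0.12, 95% confidence interval -0.69 to -0.16, edgeR adjusted p = 0.014) was below the fold of 1.5 needed for a call. With library size alone it was -0.04 (edgeR adjusted p = 0.80). It shares 2.53% of its 50-base words with Gm36448, which had no counts.

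**Figure D2:**
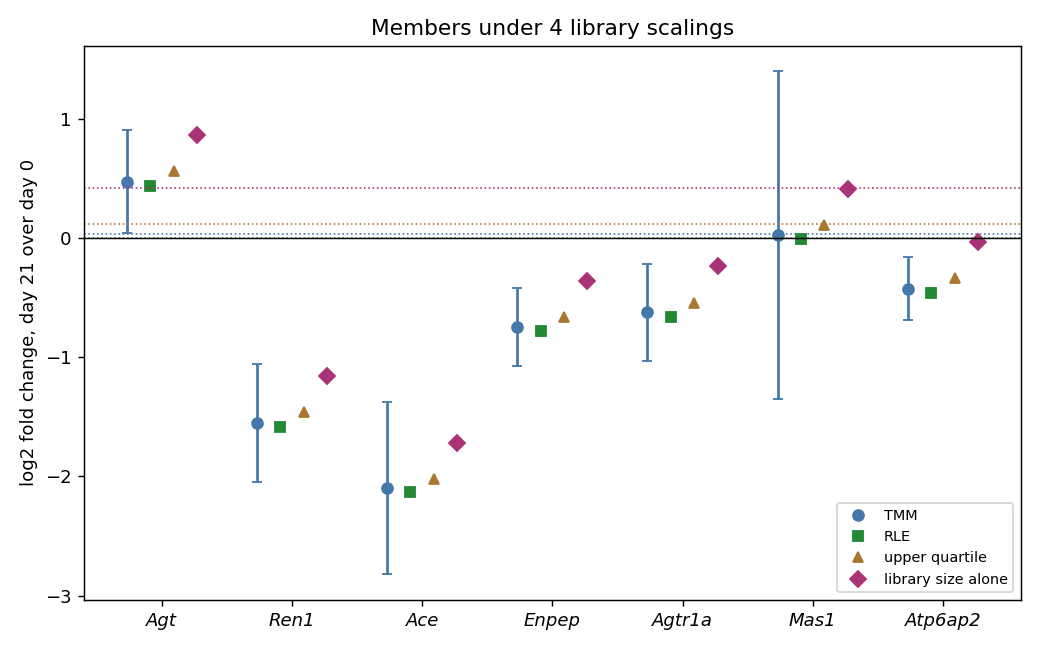
Log2 fold change, day 21 over day 0 (y axis), of the 7 genes tested under TMM, RLE, upper-quartile and library-size scaling (markers), with 95% confidence intervals for TMM and a dotted line at the median of all genes for each scaling. Ren1 (-1.55) and Ace (-2.10) stayed below -1 under all 4 scalings, whereas Atp6ap2 moved from -0.43 to -0.04 with library size alone, where the median of all genes was 0.42.

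Ratios of counts within a library do not depend on scaling, and 4 pairs of related genes were compared in this way, of which 3 are given here, with 5 ratios to marker sums added after the data were seen. The ratio of Ren1 to Agt, enzyme to substrate, was 2.90, 2.15 and 2.32 on day 0 and 0.559, 0.556 and 0.707 on day 21. Renin transcripts thus outnumbered those of its substrate in counts in all day-0 mice and fell short of them in all day-21 mice. The ratio on day 21 was 0.248 times that on day 0 (log2 difference -2.01), and the two-sided exact permutation p of 0.1 is the smallest that 3 mice against 3 can give (0.225 after Benjamini-Hochberg adjustment over the 9 ratios). Leaving out each mouse kept the log2 difference between -2.13 and -1.89.

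For Enpep to Anpep, the first aminopeptidase step against the next, the log2 difference was 0.40 (two-sided exact permutation p = 0.4, adjusted 0.514) and the groups overlapped. The ratio of Atp6ap2 to Atp6ap1, both accessory genes of the proton pump, was 0.391 to 0.521 on day 0 and 0.413 to 0.457 on day 21, and its log2 difference was -0.03 (two-sided exact permutation p = 0.9). The day-21 values of this last ratio lay inside the range of day 0.

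**Figure D3:**
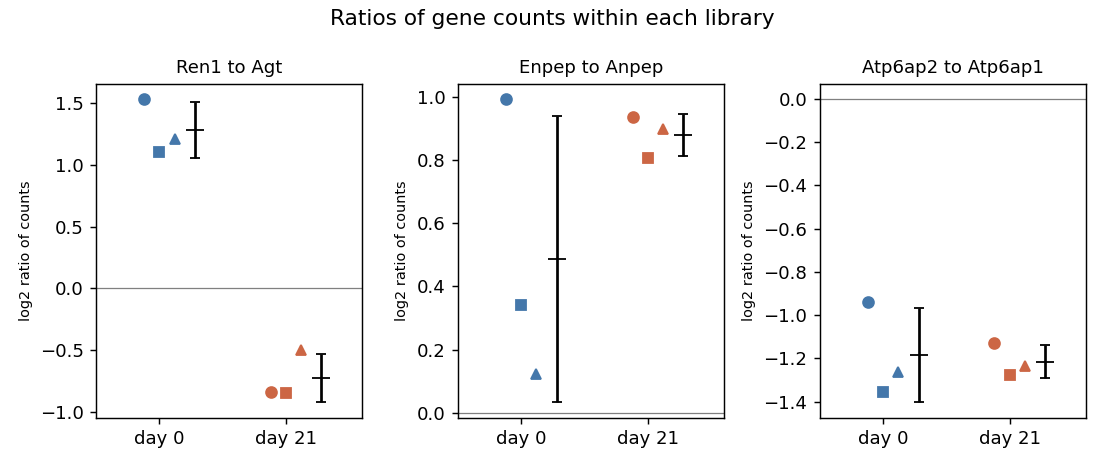
Log2 ratio of the counts of 2 genes within each library (y axes, each panel with its own range) on day 0 (blue) and day 21 (orange), with mean ± SD of 3 mice as bars and a line at 0 for equal counts. Only Ren1 to Agt separated the days, from 2.15 to 2.90 as a ratio on day 0 to 0.556 to 0.707 on day 21.

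Levels were compared between genes per kb of exon. On day 0 the order of mean normalized CPM per kb was Ren1 (104.2), Ace (53.3), Atp6ap2 (50.0), Enpep (43.7), Agt (37.1), Agtr1a (15.8), Mas1 (0.410) and Agtr2 (0.0101), with Agtr1b at 0. The ranges of the 3 mice overlapped between each neighbouring pair from Ren1 down to Agt, so no 2 neighbours there were separated, although every mouse had more Ren1 than any had Atp6ap2, Enpep or Agt. Agtr1a lay below Agt in every mouse. On day 21 the order was Agt (51.6), Atp6ap2 (37.2), Ren1 (35.6), Enpep (26.0), Ace (12.5), Agtr1a (10.3), Mas1 (0.413) and Agtr2 (0.00709). Atp6ap2 overlapped Ren1 and Ace overlapped Agtr1a there, whereas Agt stood above all others without overlap. Agt thus had the highest level per kb of the 9 genes on day 21, and Ace, second by mean on day 0, overlapped the receptor gene.

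**Figure D4:**
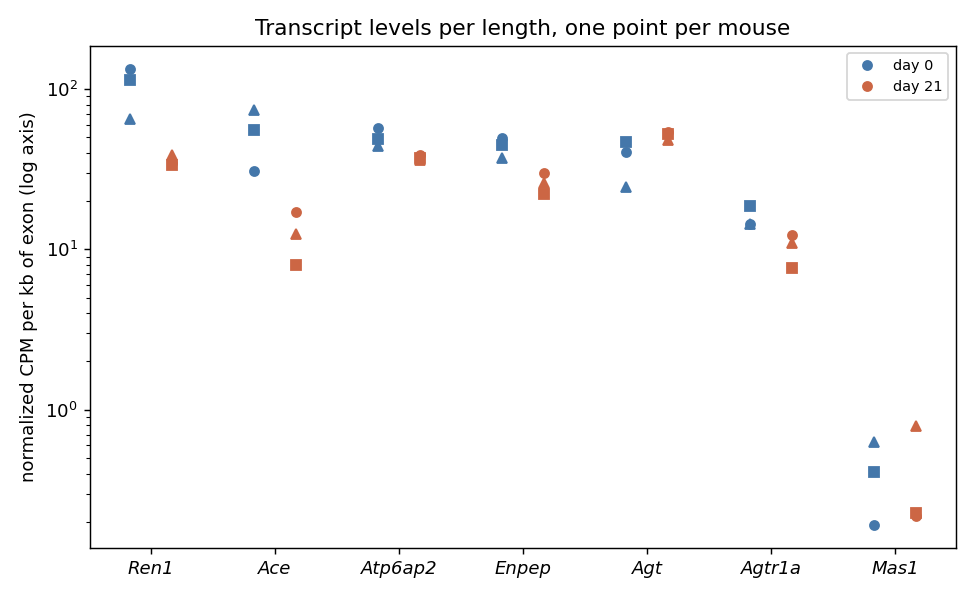
Normalized CPM per kb of merged exon (log axis) of 7 genes in each mouse on day 0 (blue) and day 21 (orange), in the order of the day-0 means. Ren1 led on day 0 with a mean of 104.2 and Agt on day 21 with 51.6, and Mas1 lay below 1 in all mice.

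The other genes that make or degrade angiotensin peptides were taken from a list of 17, of which 12 were tested, with 3 called lower, 1 higher and a median log2 fold change of -0.19 (4 higher, 2 lower and 0.20 with library size alone). For this list and those below, the shares among all genes tested were 19.6% called higher and 15.5% lower (36.1% and 8.06% with library size alone). Anpep, aminopeptidase N, fell from 147.6 ± 26.5 to 66.3 ± 7.08 CPM (log2 fold change -1.16, SE 0.15, edgeR adjusted p = 1.5e-04). It acts after aminopeptidase A in the same brush border, and it was still called lower with library size alone (-0.77).

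Klk1, tissue kallikrein, which releases kinins that ACE degrades, went from 1909 ± 168.3 to 675.9 ± 100.4 CPM, or 35.4% of its day-0 level (SE of the log2 fold change 0.14, edgeR adjusted p = 2e-05). Of its 50-base words 23.97% occur in related kallikrein genes, so its count is uncertain. Thop1, thimet oligopeptidase, which can form angiotensin 1-7 from angiotensin I, was the gene called higher, from 20.4 ± 3.19 to 33.0 ± 3.01 CPM (log2 fold change 0.69, SE 0.15, edgeR adjusted p = 0.0032).

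The other 8 genes tested were not called. Mme, neprilysin, which also forms angiotensin 1-7, was at -0.45 (edgeR adjusted p = 0.020), Rnpep, aminopeptidase B, at 0.51 (0.0072) and Ctsb, cathepsin B, at 0.51 (0.018), all with groups that did not overlap but a fold under 1.5. Log2 fold changes of Lnpep (-0.20), Ctsa (-0.03), Prcp (-0.18), Prep (0.24) and Nln (-0.25) lay between those of Mme and Rnpep. The mast cell and leukocyte proteases that can form angiotensin II without ACE were at 0 or at a few counts. Cma2 and Ctsg had 0 counts in all mice, as had Mrgprd, a receptor of the Mas family, Cma1 had 3 counts in 1 day-0 mouse only, and Cpa3 had 2 counts in 1 day-21 mouse only. Of 7 mast cell markers, 4 had 0 counts in every mouse.

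**Figure D5:**
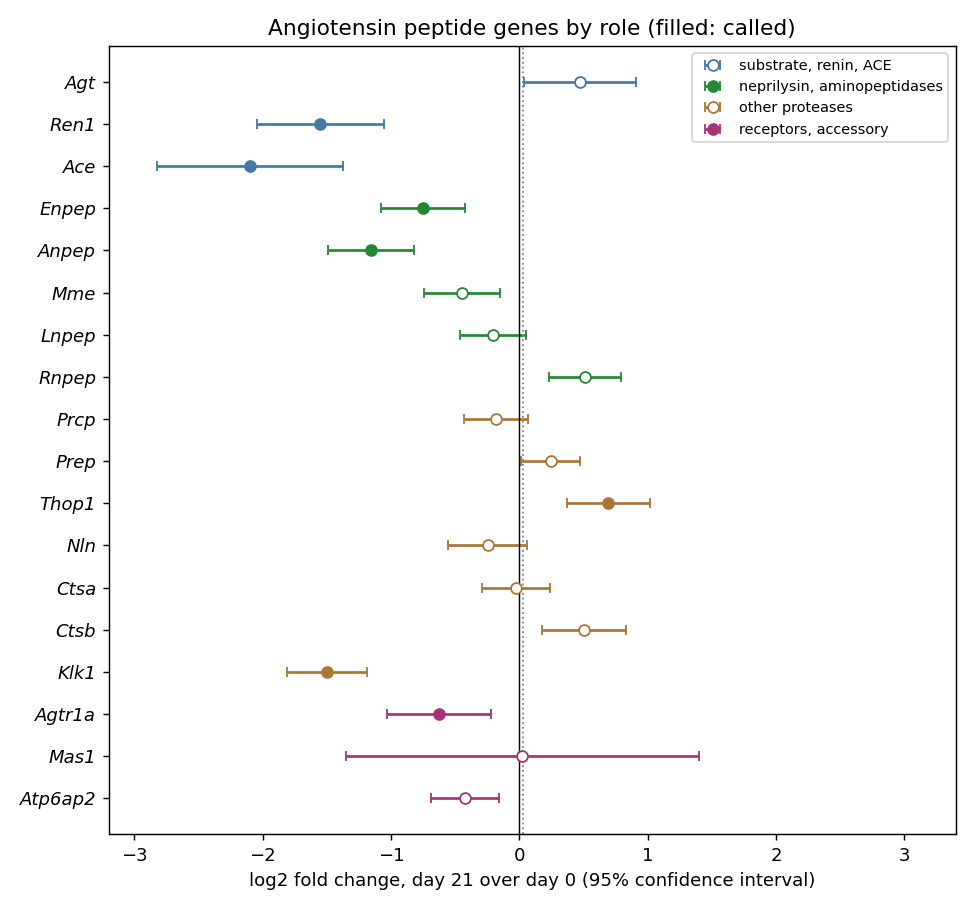
Log2 fold change, day 21 over day 0, with 95% confidence intervals (x axis) for genes of the angiotensin peptides coloured by role, filled where called, with a dotted line at the median of all genes (0.03). Ace (-2.10), Ren1 (-1.55) and Klk1 lie farthest to the left, and Thop1 (0.69) is the filled point to the right of 0.

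Genes of renin cell identity and renin release, 34 in the list and 32 tested, went both ways, with 7 called higher, 6 lower and a median log2 fold change of -0.15 (9 higher, 2 lower and 0.25 with library size alone). Among all genes tested, 19.6% were called higher and 15.5% lower, so these counts are near the general share. Soluble guanylate cyclase, the receptor for nitric oxide, had both its alpha subunit Gucy1a1 (13.9 to 53.6 CPM, log2 fold change 1.95, SE 0.20) and its beta subunit Gucy1b1 (6.87 to 12.6 CPM, 0.87, SE 0.28) called higher. The cGMP-dependent kinase Prkg1 (4.32 to 8.67 CPM, 1.01, SE 0.28) was higher with them, and edgeR adjusted p was at most 0.028 for the 3 genes. Groups overlapped in Gucy1b1 through the second day-21 mouse. That mouse was the lowest of the day-21 group in all 3 genes and also in the sum of the mesangial and fibroblast markers (858.6 CPM), whose part in these values was not tested.

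The 3 largest falls in this list, among called genes with a mean of at least 50 counts, were those of Casr, Sucnr1 and Adcy5. Casr, the calcium-sensing receptor, fell from 75.5 to 31.4 CPM (-1.27, SE 0.18), Sucnr1, the succinate receptor, from 35.7 to 15.5 CPM (-1.21, SE 0.32) and Adcy5, the adenylate cyclase through which calcium acts on renin release, from 9.20 to 4.57 CPM (-1.01, SE 0.25). Their edgeR adjusted p was at most 0.011. Casr and Sucnr1 are also expressed by tubules and other cells, whose markers moved as given above, and their part in these values was not tested. The count called higher depended on single mice, with 4 without the second day-0 mouse and 3 without the third day-21 mouse.

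Genes of AT1 receptor coupling and trafficking, all 23 of the list tested, had 3 called higher, 3 lower and a median log2 fold change of 0.05 (10 higher, 1 lower and 0.43 with library size alone). Arrb2, a beta-arrestin that ends receptor signalling at the membrane, rose from 10.3 to 33.9 CPM (1.71, SE 0.16), Arap1, a GTPase-activating protein, from 28.1 to 64.6 CPM (1.20, SE 0.11) and Arhgef1, a guanine nucleotide exchange factor, from 42.1 to 64.8 CPM (0.62, SE 0.11). Leukocytes express Arrb2 and Arhgef1 as well, and the part of the macrophage markers in these values was not tested. Itpr1, the calcium channel opened by inositol trisphosphate, fell from 401.7 to 194.5 CPM (-1.05, SE 0.13), Mtus1, which encodes an AT2 receptor-interacting protein, from 133.1 to 80.7 CPM (-0.72, SE 0.13) and Plcb1, a phospholipase C downstream of Gq, from 34.9 to 21.6 CPM (-0.69, SE 0.15). The edgeR adjusted p was at most 0.0039 for these 6 genes.

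For Atp6ap2, the comparison list was the vacuolar proton pump, with all 21 genes tested, 0 called higher, 5 lower and a median log2 fold change of -0.38 (0 higher, 1 lower and 0.01 with library size alone). The value of Atp6ap2, -0.43, was thus near the median of its pump. Atp6v1c2 fell from 24.2 to 9.57 CPM (-1.34, SE 0.24), Atp6v1a from 640.5 to 343.3 CPM (-0.90, SE 0.11) and Atp6v0a4 from 396.8 to 215.2 CPM (-0.88, SE 0.14), with an edgeR adjusted p of at most 0.0013. Atp6v0a4 is 1 of the subunits found in acid-secreting cells of the collecting duct. The pump subunit Atp6v1b1, at -0.355, was not called, and its groups overlapped. It is 1 of 6 thick limb and distal tubule markers. These summed to 7039 to 8156 CPM on day 0 and 4199 to 4830 CPM on day 21. Umod was the largest of the 6, with a mean of 4670 CPM on day 0 and 3413 CPM on day 21. The part of these markers in the pump values was not tested.

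In the mineralocorticoid arm, which aldosterone drives after angiotensin II releases it, 9 of 10 genes were tested, with 0 called higher, 3 lower and a median log2 fold change of -0.35 (3 higher, 3 lower and 0.04 with library size alone). Sgk1, a kinase induced by aldosterone, fell from 207.8 ± 24.7 to 81.3 ± 13.3 CPM (SD, n = 3 each), a log2 fold change of -1.35 (SE 0.15, edgeR adjusted p = 4.5e-05). Tsc22d3, a target of glucocorticoids and mineralocorticoids, fell from 124.4 to 55.2 CPM (-1.17, SE 0.21) and Slc12a3, the thiazide-sensitive sodium chloride cotransporter, from 628.9 to 307.3 CPM (-1.03, SE 0.18), with an edgeR adjusted p of at most 0.0013. The groups did not overlap in 5 of the 9 genes tested, these 3 included, as in 57.1% of all genes tested. Log2 fold changes ran from -1.35 to 0.48 over the 9 genes, of which 6 were below 0. Slc12a3 is also 1 of the thick limb and distal tubule markers given above.

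The genes nearest in pattern over the 6 mice were found for each gene tested, by the distance between log2 profiles centred on their own means, among 13141 others (13142 for Mas1). For Ace the nearest was its antisense neighbour Gm11651 (distance 0.151), followed by Slc22a6, an organic anion transporter of the proximal tubule (0.350), and Ces2c (0.360). For Ren1 they were Papss2 (0.303), Cdr2 (0.312) and Teddm2 (0.366), and for Enpep Cpt1a (0.128), Gpx3 (0.170) and Nadsyn1 (0.175). Agt was nearest to Tgm4 (0.210), Gm44287 (0.216) and the urate transporter gene Slc2a9 (0.227), and Agtr1a to Gm45231 (0.168), Gm17089 (0.197) and Smim26 (0.198). Atp6ap2 was nearest to Zbtb7b (0.091), Pi4k2a (0.093) and Upf1 (0.095), and the low counts of Mas1 gave no close match, with Sox7 (0.654), Snhg20 (0.725) and 1110019D14Rik (0.732) first. No other member of the system was among the genes listed here. So few were listed for each gene, out of 13141 or 13142 compared, that this absence cannot show whether the members moved together.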

How the data were processed

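Kidney mRNA of 3 day-0 and 3 day-21 mice was sequenced as paired-end reads. The authors deposited raw counts per gene for each mouse, without normalization. The submitters' processing notes name TopHat and mm10, and the counting program and its strand setting are not given in the sources used here. All 55450 identifiers matched GENCODE M21 on GRCm38. Libraries held 10963849 to 14333311 counts, and no pair was a duplicate (chi-square per gene within groups 7.17 to 25.7). Replicates are separate mice, and no batch is labelled.

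In R 4.3.3, genes were filtered by filterByExpr (minimum count 10, minimum total 15), scaled by TMM and compared by edgeR 4.0.16 with its quasi-likelihood test, Benjamini-Hochberg adjusted over 16592 genes. Genes were called at more than a 1.5-fold difference with an adjusted p under 0.05, the thresholds the study states. The fits were tested on simulated data with 200 genes changed. That is far fewer than were called here, so the simulation does not test the scaling. DESeq2 1.42.0, limma-voom (limma 3.58.1), other scalings, filters and thresholds, scaling without mitochondrially encoded genes, a replicate block and leaving out each mouse were alternatives. Ratios were compared by exact permutation tests. Sequences were read in Python 3.11.15.

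The members and lists were chosen with earlier results of these data known. The genes named are all members, the 17 other angiotensin peptide genes except for an item that is not reported here, the 3 largest rises and 3 largest falls called in each other list with a mean of at least 50 counts, and the 3 nearest genes by pattern.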

Additional observations from a re-analysis of the deposited data

How the results depend on the processing

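Across the alternatives, Ren1 and Ace kept their calls in 17 of 17, Enpep in 15 and Agtr1a in 12, and Agt, not called with all mice and TMM, was called in 2. Scaling by library size alone changed the counts of calls to 5985 genes higher and 1338 lower over all genes, to 1 higher and 2 lower among the members, to 4 higher among the other angiotensin peptide genes, to 2 lower among renin release genes, to 10 higher and 1 lower among AT1 coupling genes, to 1 lower in the proton pump and to 3 higher in the mineralocorticoid arm. Upper-quartile scaling gave 3 higher among the other peptide genes and 6 among the AT1 coupling genes. At an adjusted p under 0.05 at any fold, 3 other peptide genes and 8 AT1 coupling genes were higher, 12 proton pump genes were lower, and the mineralocorticoid arm had 1 higher and 5 lower. With more than a 2-fold difference and an adjusted p under 0.01, 1918 genes were higher and 1254 lower, with 2 members lower, 0 other peptide genes higher, 2 renin release genes higher and 2 lower, 1 AT1 coupling gene lower and 1 proton pump gene lower. Fewer renin release genes were tested with a mean of at least 50 counts, which left 4 higher.

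Leaving out each mouse in turn gave 0 to 1 members higher, 1 to 2 other peptide genes higher, 3 to 7 renin release genes higher and 0 to 1 mineralocorticoid genes higher. It gave log2 ratio differences of -0.11 to 0.10 for Atp6ap2 to Atp6ap1 (0.095 without the first day-0 mouse, 0.003 without the second day-21 mouse) and of -0.17 to 0.17 for Agtr1a to podocyte markers (0.108 without the third day-0 mouse, 0.168 without the second day-21 mouse). The log2 fold change of Mas1 ran from -0.87 to 0.42 over the mice left out (-0.32 without the first day-0 mouse, -0.87 without the third day-21 mouse), and was -0.009 with RLE, -0.015 with DESeq2 and -0.12 with limma-voom. The cause of these changes was not tested.

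Deviations of same-numbered mice correlated at -0.03, 0.20 and 0.15, and those of differently numbered mice at -0.234 to 0.145. So few correlations cannot decide whether the replicate numbers pair the mice. With the replicate block, 3235 genes were higher and 2523 lower, the members had 0 higher and 4 lower, and Mas1 was at -0.093. Counts of 3 or fewer per library, as for Agtr1b and Agtr2, allow no comparison at this depth.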
